A study of Mus musculus and Homo sapiens with 352 samples.

Results

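Tight clusters of CTCF binding sites were defined in the mouse B cell lymphoma line CH12 as runs of 3 or more CTCF ChIP-seq peaks with 10 kb or less between the midpoints of neighbouring peaks. The rule found 3030 clusters among 26269 runs of peaks, and they held 11339 of the 39438 peaks. The other runs were 4860 runs of 2 peaks and 18379 single peaks, which lay more than 10 kb from any other peak. Peak positions alone chose the clusters, so their number and spacing are a description. The peaks came from wild-type cells, for which the labels list 3 CTCF libraries. Chromatin interactions came from 2 CTCF ChIA-PET libraries of CH12 cells, 1 with the genotype CTCFmZF9to11, a mutation that the label places at zinc fingers 9 to 11 of CTCF, and 1 of wild type. A further source was a list of 59978 CTCF peaks of resting and activated B cells. The labels do not say whether the mutant cells were 1 clone. All positions are in mouse build mm9.

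The DNA-binding protein CTCF recognises, through its zinc fingers, a motif that has a direction, and it sits at the ends of many chromatin loops. In the loop extrusion model, cohesin reels in DNA until it meets a CTCF molecule whose motif points towards the loop, so that most loops join a pair of sites whose motifs face each other. A site is therefore expected to serve loops on 1 side, set by the direction of its motif, and sites side by side with different motif directions can serve both sides. ChIA-PET pulls down chromatin with an antibody, here to CTCF, ligates DNA ends that are held together, and reads the joined pairs. No motif directions, DNA sequences or gene names are given here for the clusters.

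The mutant list held 11820 interactions with 82222 tags, and the wild-type list 11534 interactions with 74198 tags, a tag being 1 joined pair that supports an interaction. Each list starts at 3 tags and stops at loops of 2 Mb, and its ends, called anchors, were mapped by the authors to CTCF peak calls with core motifs. A member without a motif could therefore be counted at an anchor only where it overlapped an anchor mapped to another peak call. With 1 library per genotype, differences between mutant and wild type are between 2 libraries, with no replicate check. The Wilson 95% intervals given for shares, and the Newcombe 95% intervals for differences of shares, cover counting error only and treat peaks, interactions or tags as independent, although those of 1 cluster share their surroundings.

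Most clusters were small. There were 1767 clusters of 3 peaks and 727 of 4, which together made up 82.3% of all clusters. Clusters of 5 numbered 317, clusters of 6 numbered 112, and 15 clusters held 10 or more peaks. The largest held 20, 16, 14 and again 14 peaks, and doubts about the one of 20 are given with its values. In all, 28.8% of the CH12 peaks were cluster members, 24.6% were in runs of 2 and 46.6% were single.

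**Figure D1:**
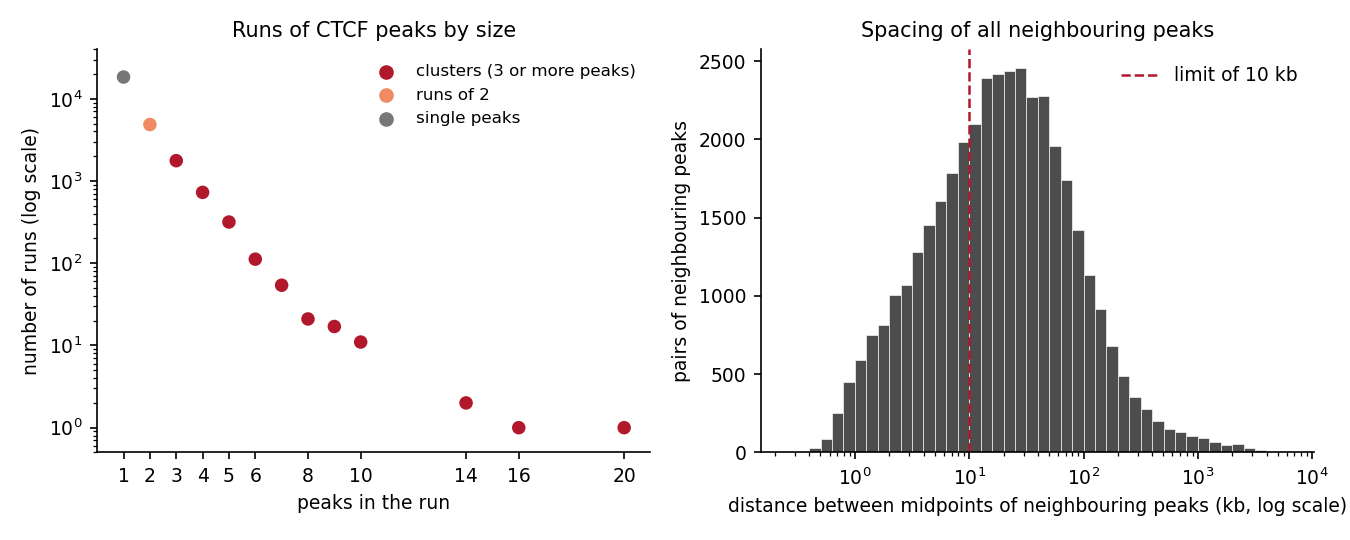
Left, number of runs (log scale) against the number of peaks in the run. Right, histogram of the distance between the midpoints of all neighbouring CH12 peaks in kb on a log scale, with the limit of 10 kb as a dashed line. The counts fall steadily with run size, and the distances form 1 broad hump with no dip at the limit.

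Within clusters, neighbouring members lay a median of 4.08 kb apart, with quartiles of 2.12 and 6.65 kb over 8309 gaps. The closest pair lay 274.5 bp apart, and 6.39% of the gaps were under 1 kb. From first to last midpoint a cluster spanned a median of 11.1 kb, with 5th and 95th percentiles of 3.88 and 24.8 kb, and the longest spanned 70.7 kb. Over all neighbouring peaks the median distance was 19.3 kb, and 33.4% of the 39417 distances were 10 kb or less. The histogram of spacing shows that the limit cuts a continuous distribution. Peaks beside a gap of 9 to 10 kb were at an anchor of the mutant list in 33.6% of cases and of the wild-type list in 36.3% (n = 1862), while peaks beside a gap of 10 to 11 kb were so in 33.7% and 35.0% (n = 1708).

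Clusters were spread unevenly over chromosomes. Members made up 36.9% of the 3229 peaks of chromosome 11, the highest share, and 34.6% of those of chromosomes 15 and 5. On the X chromosome they made up 9.87% of 770 peaks, in 22 clusters, and chromosome 6 had the next lowest nuclear share, 474 of 2156 peaks. Member peaks also had higher scores. Ranked within the whole list, members had a median score percentile of 57.2, peaks in runs of 2 had 53.3 and single peaks 44.5. Inside a cluster the scores were mixed, with a median percentile of 85.9 for the strongest member and 21.1 for the weakest.

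Member peaks were at anchors more often than single peaks. Of the 11339 members 37.9% (95% interval 37.0 to 38.8) were at a mutant anchor, and of the 18379 single peaks 27.4% (26.8 to 28.1). In the wild-type list the shares were 39.1% (38.2 to 40.0) of members and 31.1% (30.4 to 31.7) of single peaks. Counted over both lists together, 48.9% of members and 38.3% of single peaks were used, a difference of 10.5 percentage points (9.39 to 11.7). Over all scores, peaks in runs of 2 lay between, at 35.8% in the mutant list and 38.5% in the wild-type list.

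Much of that difference went with peak score. Peaks were split by score into 5 classes of about equal size. In the lowest class 9.52% of members and 6.05% of single peaks were at a mutant anchor, and in the highest 70.7% of members and 64.1% of single peaks. Starting at the lowest class, members exceeded single peaks in the mutant list by 3.46 points, then 2.85 points, and by 6.65 points in the highest class. The interval of the difference lay above 0 in 4 of the 5 classes and included 0 in the one below the highest (-0.34 to 4.84). In the wild-type list the differences were 1.43, 0.090, 1.06 and 0.77 points, all with intervals that included 0, and 2.99 points (0.607 to 5.38) in the highest class, where 70.8% of members and 67.8% of single peaks were used. At like score clusters were not above runs of 2 throughout. In the fourth class the mutant shares were 45.6% of members and 47.6% of peaks in runs of 2, and in the wild-type list runs of 2 were above members in the 4 lower classes, for example with 31.5% of members and 34.2% of peaks in runs of 2 in the middle class. The plot of use by score class shows a rise with score that is far larger than the distance between members and single peaks of like score.

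**Figure D2:**
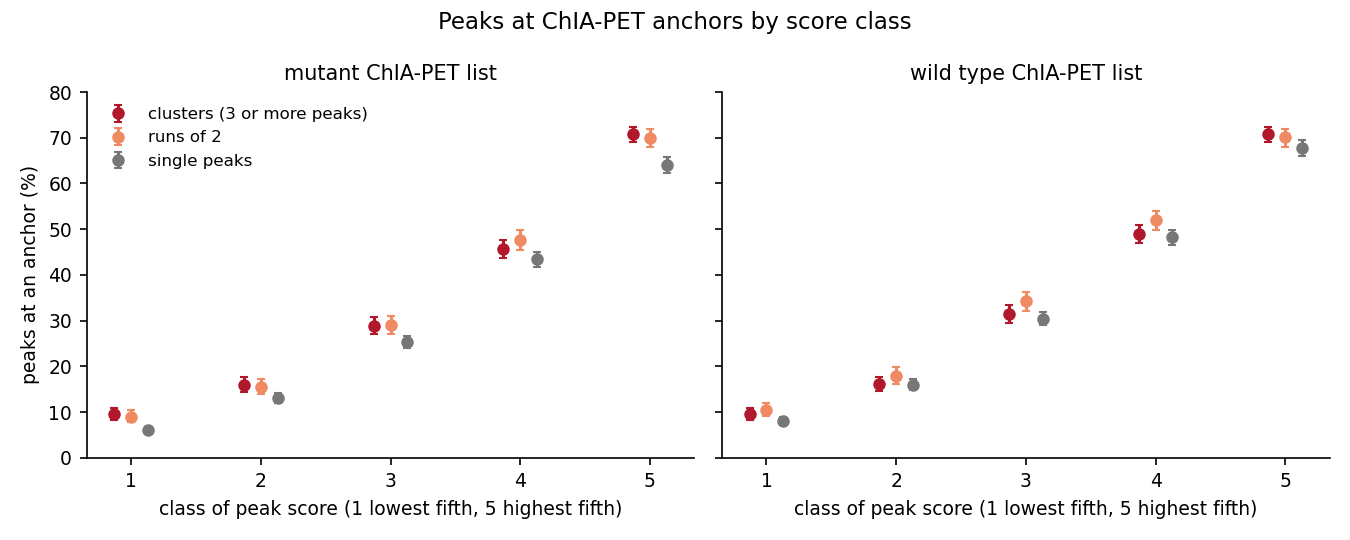
Share of CH12 peaks at a ChIA-PET anchor in percent, by class of peak score from the lowest to the highest of 5, for the mutant list (left) and the wild-type list (right). Points are clusters, runs of 2 and single peaks, with Wilson 95% intervals. In the highest class 70.7% of members and 64.1% of single peaks were used in the mutant list.

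As a whole, a cluster had several chances to be an anchor, and 75.8% (74.3 to 77.3) of clusters held an anchor in the mutant list and 76.5% (74.9 to 77.9) in the wild-type list. For clusters of 3 the shares were 70.1% in the mutant and 71.6% in the wild-type list, and for clusters of 5 or more they were 88.8% and 87.7%. Per member the size made little difference. Members of clusters of 3 were used in 37.8% of cases in the mutant list and members of clusters of 5 or more in 37.6%. A cluster in use had a mean of 3.36 interactions and 24.1 tags in the mutant list, against 1.83 interactions and 12.6 tags for a single peak in use. In the wild-type list the means were 3.09 interactions and 20.3 tags for clusters and 1.66 interactions and 10.6 tags for single peaks. Per member in use the numbers were closer to those of single peaks, at 2.05 interactions in the mutant and 1.84 in the wild-type list.

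Interactions with at least 1 end in a cluster were 53.4% of the mutant list (6312) and 51.0% of the wild-type list (5886). Both ends lay in clusters in 12.9% of mutant and 12.2% of wild-type interactions. Loops at clusters were shorter than those at single peaks, with a median span between anchor midpoints of 139 kb against 167 kb in the mutant list, and of 118 kb against 144 kb in the wild-type list. An interaction can touch a cluster at 1 end and a single peak at the other, so these groups overlap.

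Few clusters used all their members. Over both lists, 856 clusters had 1 member at an anchor, 864 had 2, 615 had 3 and 252 had more, while 443 clusters (14.6%) had none. Every member was used in 395 clusters. Of the 2587 clusters in use, 66.9% (65.1 to 68.7) had 2 or more members at anchors, and 33.5% had 3 or more. Within 1 list the share with 2 or more was 57.3% in the mutant and 58.4% in the wild-type list. An anchor can cover more than 1 member, as did 395 of the 5114 anchors in clusters.

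The member with the highest score was the one used most. Ranked by score inside its cluster, the first member was at an anchor in 60.3% of 3030 clusters in the mutant list and 61.8% in the wild-type list. For the second the shares were 41.7% in the mutant and 42.7% in the wild-type list, and for the third 26.0% and 27.3%. The anchor with most tags in a cluster covered the strongest peak in 60.7% (58.7 to 62.7) of 2298 clusters in the mutant list and 61.2% (59.2 to 63.2) of 2317 in the wild-type list. For comparison, the anchor with most tags, or the tied ones, covered on average 32.0% of a cluster's members in the mutant and 32.4% in the wild-type list. Even so, the strongest peak missed this place in about 4 of 10 clusters. Among clusters with 2 or more anchors the strongest peak led in 53.2% of mutant and 53.9% of wild-type cases, and the leading anchor then held a median of 65.3% of the cluster's tags in the mutant and 62.8% in the wild-type list. Tied anchors, found in 65 clusters of the mutant and 90 of the wild-type list, counted as led by the strongest peak when any of them covered it.

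Place along the cluster did not pick out the leading member. In clusters of 3 with a leading anchor over 1 place, it was the left member in 33.9%, the middle in 32.3% and the right in 33.8% of 1097 clusters in the mutant list. In the wild-type list the left member led in 33.5%, the middle in 32.4% and the right in 34.1% of 1114. Use was similar too, at 37.8% of left, 38.9% of inner and 36.2% of right members in the mutant list, and 37.3%, 40.6% and 38.2% in the wild-type list.

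What did depend on place was the side reached. Left outer members sent 69.8% (67.7 to 71.9) of their 1887 mutant interactions to the left, away from the cluster, and right outer members sent 71.0% of 1843 to the right. In the wild-type list the outward shares were 71.3% (69.1 to 73.4) of 1729 for left and 73.0% of 1736 for right outer members. Inner members pooled were even, with 49.6% to the left in the mutant and 50.0% in the wild-type list, as were single peaks, with 50.1% in the mutant and 50.4% in the wild-type list. Interactions between members of 1 cluster were left out of these counts, as were 604 ends in the mutant and 536 in the wild-type list at anchors that covered members of different places. Left and right here follow the chromosome coordinates.

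Inner members did lean by place, and the lean changed step by step from member to member. In clusters of 5, the share of interactions reaching left in the mutant list was 76.5% for the first member, 64.8% for the second, 50.6% for the third, 37.8% for the fourth and 28.0% for the fifth. The wild-type list gave 76.3%, 64.0%, 44.6%, 35.7% and 23.8% for the same 5 places. Clusters of 4 went through 69.5%, 57.5%, 40.5% and 26.4% in the mutant list, and clusters of 3 through 66.9%, 48.3% and 33.2%. All 3 sizes thus fell from left to right in both lists, as the plot of sides by member shows. In these values an anchor over several members counts once for each of them.

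**Figure D3:**
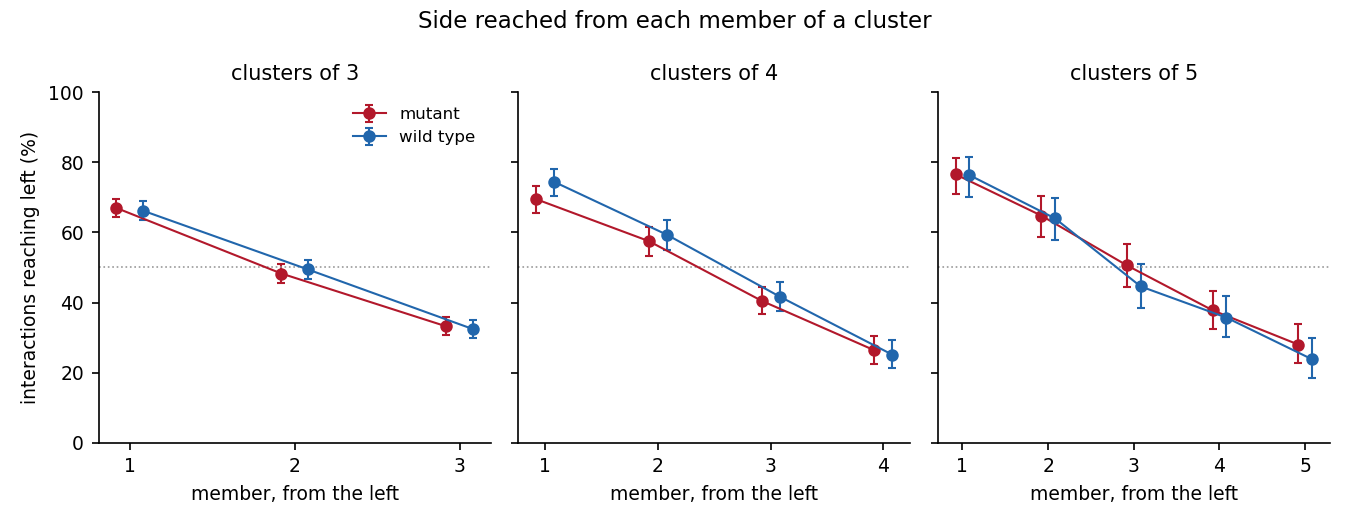
Share of interactions that reach left, in percent, for each member counted from the left in clusters of 3, 4 and 5 peaks. Red points are the mutant and blue points the wild-type list, with Wilson 95% intervals, and the dotted line marks 50%. In clusters of 5 the mutant share falls to 28.0% at the last member, from 76.5% at the first.

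Members of runs of 2 leaned outward less, in 58.8% of 5921 ends in the mutant list and 58.3% of 5638 in the wild-type list. Outer members of clusters exceeded them by 11.6 points (9.68 to 13.5) in the mutant and 13.8 points (11.8 to 15.8) in the wild-type list. Outer members reached outward in 70.4% of 3730 mutant and 72.2% of 3465 wild-type ends, a difference of -1.72 points (-3.81 to 0.37). The shares lay further apart in clusters of 5 or more, at 78.4% (75.1 to 81.4) of 649 mutant and 84.2% (81.0 to 87.0) of 570 wild-type ends. In clusters spanning 15 to 20 kb they were 69.3% (65.7 to 72.7) of 674 mutant and 75.6% (71.9 to 78.9) of 581 wild-type ends. These 2 classes were picked from many for their difference. In longer clusters the shares were closer, at 79.9% mutant and 82.6% wild type for 20 to 30 kb. Over 30 kb they were 89.2% and 90.8%. In clusters of 3 they were 67.6% in the mutant and 67.7% in the wild-type list. Counting each outer anchor once by its majority side gave 71.0% in the mutant and 71.7% in the wild-type list. On all 20 chromosomes with such interactions the outward share was above 50%, with lowest values of 58.7% in the mutant and 63.4% in the wild-type list.

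The outward lean was stronger where more of the cluster was in use. With 1 member at an anchor, outer members reached outward in 60.6% of mutant and 60.9% of wild-type ends, and with 4 or more members in use in 86.8% of 220 mutant and 86.5% of 325 wild-type ends. It was also stronger in long clusters, at 65.1% of mutant and 66.2% of wild-type ends in clusters under 5 kb, and 89.2% of 74 mutant and 90.8% of 65 wild-type ends in clusters over 30 kb. With peak score it went the other way. Outer members below the median score reached outward in 73.5% of mutant and 77.7% of wild-type ends, and those above the 80th percentile in 69.3% of mutant and 70.9% of wild-type ends. Loops under 50 kb gave 78.0% of mutant and 80.3% of wild-type ends. Loops of 400 kb or more gave 69.4% of mutant and 70.1% of wild-type ends. Interactions between members of a cluster were left out, so an inward loop counted only when it reached past the other members. Outward loops had no such limit. The rule leaves out more short inward loops the longer the cluster is. How much of the trends with cluster span and loop length comes from this rule was not tested.

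When both outer members of a cluster were in use with a majority side each, they most often pointed apart. In the mutant list this was so in 57.7% of 284 clusters, both reached left in 17.3%, both right in 20.8%, and they faced each other across the cluster in 4.23%. The wild-type list had 56.4% apart, 19.7% both left, 22.4% both right and 1.49% facing, of 335 clusters. Runs of 2 were apart in 34.1% of 587 mutant and 31.2% of 673 wild-type cases. In the 142 clusters that could be classed in both lists, 91.5% (85.8 to 95.1) had the same pattern in the mutant and the wild type, and 0 were apart in 1 list and facing in the other (upper 95% bound 2.63%).

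As a unit, clusters reached both sides more often than single peaks. Among runs with 4 or more interactions, partners lay on both sides in the mutant list for 71.3% of 825 clusters, 64.4% of 522 runs of 2 and 54.1% of 464 single peaks. In the wild-type list this was so for 65.3% of 761 clusters, 53.2% of 440 runs of 2 and 46.6% of 322 single peaks. Clusters had more interactions, which raises this share. At exactly 4 interactions the mutant shares were 55.3% of 266 clusters, 55.3% of 253 runs of 2 and 44.1% of 272 single peaks, and the wild-type shares 49.7% of 292 clusters, 52.7% of 239 runs of 2 and 40.4% of 193 single peaks. At this equal number clusters were therefore not above runs of 2 in either list. At 5 or 6 interactions the mutant shares were 71.7% of 332 clusters and 70.0% of 200 runs of 2. The wild-type shares were 70.2% (64.9 to 75.1) of 309 clusters and 53.6% (46.0 to 60.9) of 168 runs of 2. At 7 or more, the mutant list had 89.4% of 227 clusters, 81.2% of 69 runs of 2 and 86.1% of 36 single peaks. The wild-type list had 84.4% of 160, 54.5% of 33 and 77.3% of 22.

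Members of 1 cluster often met the same partner. In clusters with 2 or more anchors in use, 27.5% (26.1 to 28.9) of 4103 partner anchors in the mutant list and 28.5% (27.1 to 29.9) of 3782 in the wild-type list were reached from at least 2 members' anchors. Such a partner was found in 69.9% of 1162 of these clusters in the mutant list and 69.8% of 1185 in the wild-type list. Where an interaction joined 2 clusters, 35.2% of 924 cluster pairs in the mutant list and 39.4% of 795 in the wild-type list were joined by 2 or more interactions. Members seldom met each other in the lists, with 121 such interactions in 105 clusters in the mutant list and 137 in 114 clusters in the wild-type list. The shortest of these spanned 7.40 kb in the mutant and 7.41 kb in the wild-type list, equal to the shortest loops of the whole lists. No source used here states a lower limit on loop size. Neighbouring members lay a median of 4.08 kb apart, with an upper quartile of 6.65 kb. Most neighbouring members were thus closer together than any listed loop, so the low count does not measure contact between them.

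Of the runs in use in the mutant list, 88.3% of clusters and 73.5% of single peaks were in use in wild type too. Of those in use in the wild-type list, 87.5% of clusters (86.1 to 88.8) and 64.9% of single peaks (63.6 to 66.1) were in use in the mutant too. Runs of 2 lay between, at 81.7% counted from the mutant and 77.1% from the wild-type list. A run with more peaks has more chances to stay in use. Anchors within clusters were kept less often than whole clusters. Of mutant cluster anchors 73.3% were wild-type anchors too, and of wild-type cluster anchors 71.0% were mutant anchors. Anchors in runs of 2 were close to these, at 74.3% and 69.1%, and those at single peaks had 73.5% and 64.9%. Of the 2028 clusters used in both lists, 46.5% had the same anchors, 47.7% had some in common and 5.72% had none. Among 1378 of them with 2 or more anchors and no ties, the anchor with most tags was the same in 64.2% (61.7 to 66.7).

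Whether interactions at clusters were shared between the lists more or less often than those at single peaks depended on the list counted from. Of the mutant interactions with an end in a cluster 44.7% were also in the wild-type list, and of those with an end at a single peak 47.3%, a difference of -2.60 points (-4.27 to -0.914). Of the wild-type interactions 47.9% at clusters and 46.9% at single peaks were also in the mutant list, a difference of 1.08 points (-0.63 to 2.79). With peaks within 1 kb merged first, this wild-type difference was 2.49 points (0.705 to 4.27). The share was higher for interactions with more tags. Among wild-type interactions at clusters, 521 of 1893 with 3 tags and 746 of 933 with 10 or more were in the mutant list too.

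Relative to all listed tags, clusters held slightly more of the mutant than of the wild-type tags. Anchors in clusters held 55994 mutant and 47777 wild-type tag ends, a log2 ratio of 0.08 after scaling (exact 95% interval 0.06 to 0.10). Single peaks held 63361 mutant and 60330 wild-type tag ends, a log2 ratio of -0.08 (-0.09 to -0.06), and runs of 2 had 0.02. Clusters thus exceeded single peaks by 0.16 on the log2 scale (0.13 to 0.18), and did so on 18 of 20 chromosomes, with differences from -0.09 to 0.93. The exceptions were chromosomes 3 and 6. The highest value was on the X chromosome, where clusters held 132 mutant and 92 wild-type tag ends.

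Peak score and span moved with this ratio. Above the 80th percentile of score, the log2 ratio was 0.15 at clusters and 0.01 at single peaks. From the median to the 80th percentile it was -0.06 at clusters and -0.13 at single peaks, and below the median 0.03 and -0.21. By span, interactions under 50 kb had log2 ratios of -0.31 at clusters and -0.43 at single peaks, and those of 400 kb or more 0.46 and 0.30. Clusters were above single peaks in every one of these classes, while the span itself was linked with larger differences than cluster membership. Runs of 2 were close to clusters in some classes. From the median to the 80th percentile they had -0.066 against -0.064 at clusters, and under 50 kb -0.322 against -0.305. Above the 80th percentile runs of 2 had 0.11. They lay further below clusters under the median score, at -0.19, and at 400 kb or more, at 0.32. Among interactions in both lists the ratio was 0.11 at clusters and 0.01 at single peaks. Left, inner and right members had similar ratios of 0.09, 0.09 and 0.07.

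**Figure D4:**
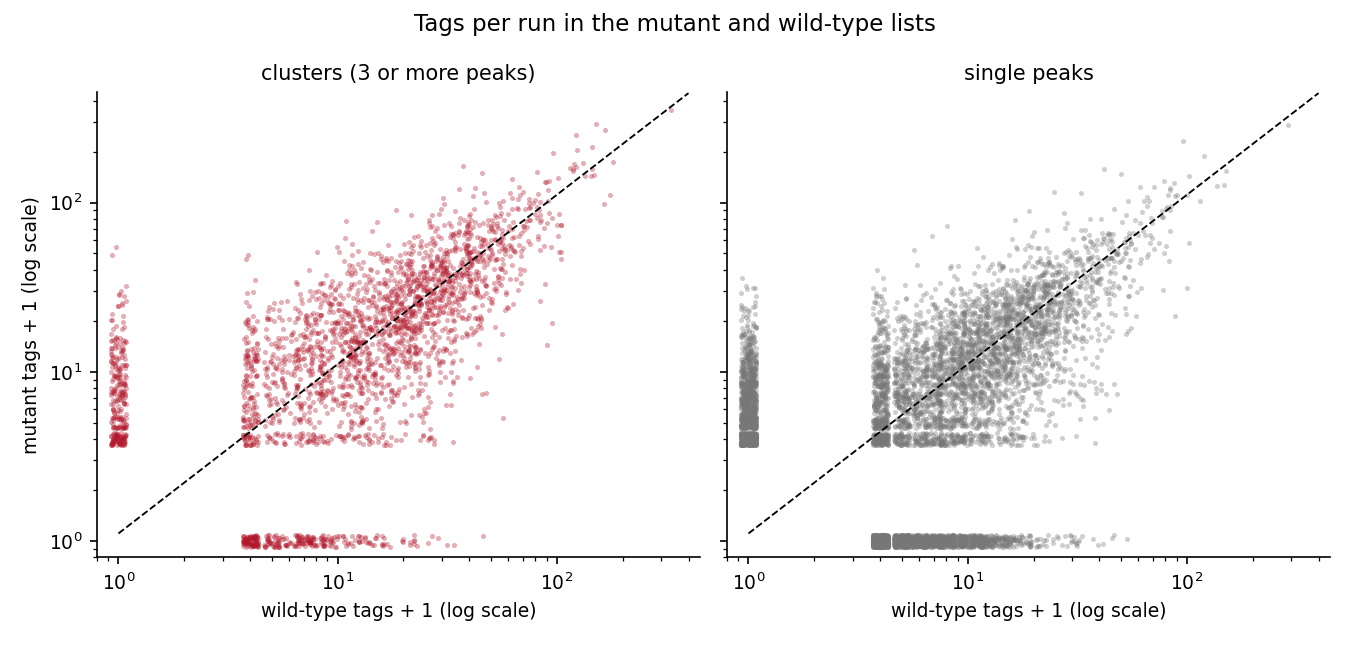
Tags per run plus 1 in the mutant list (vertical, log scale) against the wild-type list (horizontal, log scale), for clusters (left) and single peaks (right) in use, with points spread slightly at random. The dashed line marks the ratio of all listed tags, 82222 mutant to 74198 wild-type. Bands along the axes are runs with no interaction in 1 list, and the gap beside them is the lower limit of 3 tags.

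The 2 libraries were then compared interaction by interaction. Mutant and wild-type tags of each were set against the ratio of the lists' total tags in an exact binomial test, two-sided, and p-values were adjusted by Benjamini-Hochberg over the 17954 interactions of both lists. Where a list lacked an interaction, 2 tags were put in its place. Of all interactions 0.986% passed an adjusted p of 0.05. Of the 9376 with an end in a cluster 111 passed, or 1.18% (0.984 to 1.42), which is near that background. Higher mutant tags were called for 47 of them (0.501%), against 0.401% of all interactions, and lower for 64 (0.683%), against 0.585%. The calls fell in 122 clusters, 15 of them with 2 or more calls and 3 with calls in both directions. The count rests on how missing interactions are treated, with 374 calls when they were given 0 tags and 35 when they were left out. Of the 111, 30 were present in both lists. Of the 81 that were missing from a list, 36 had both anchors in use there through other interactions, and 74 had every cluster end in a cluster that was still in use there.

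The strongest call in the mutant direction joined an anchor over the third member of a 4-peak cluster, chr13:56298451-56299584, to one over the last 2 members of another 4-peak cluster, chr13:56367341-56369517. It held 72 mutant tags and was not listed in wild type (adjusted p = 8.73e-14, exact binomial test), where the first anchor kept 63 tags and the second had none. The next ran from the anchor of a single peak, chr5:114910912-114911969, to that of the second member of an 8-peak cluster, chr5:115058031-115059518, with 51 mutant tags and no listing in wild type (adjusted p = 9.45e-09, exact binomial test). In the wild-type direction the strongest joined an anchor in a run of 2, chr2:166897176-166898269, to one over the third member of a 4-peak cluster, chr2:167044651-167045629. It was not listed in the mutant and held 72 wild-type tags (adjusted p = 1.31e-16, exact binomial test), although its anchors kept 91 and 13 tags in the mutant through other partners. Second came an interaction from an anchor in a run of 2, chr6:50757826-50758758, to one over the first member of a 4-peak cluster, chr6:50886656-50887853, not listed in the mutant and with 52 wild-type tags (adjusted p = 4.22e-11, exact binomial test). The other named calls were on chromosomes 14, 10 and 15 for the mutant, with 40 to 47 tags, and on chromosomes 7, 11 and 5 for the wild type, with 35 to 38 tags. None of these 10 interactions was in both lists.

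By whole cluster, the 2 libraries also differed about as much as elsewhere. Of the 892 clusters with 40 or more tags over both lists, 113 (12.7%) were 2-fold or more higher in the mutant after scaling, against 12.8% of all runs, and 77 (8.63%) were 2-fold or more lower, against 9.12%. A cluster with no listed tags was taken at 3 tags for this count. The highest ratios belonged to 3-peak clusters at chr14:20931349-20940842, with 55 mutant tags and no wild-type listing, at chr15:85439994-85443913, with 46 mutant tags and no wild-type listing, and at chr17:44393506-44399155, with 49 mutant and 3 wild-type tags. The lowest were at chr7:133780453-133792389, a 4-peak cluster with 4 mutant and 52 wild-type tags, chr5:135368596-135383639, with no mutant listing and 44 wild-type tags, and chr1:20915327-20929561, with 6 mutant and 46 wild-type tags, both of 3 peaks. These 6 were chosen by their ratio, so the ratio is a description.

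In the chromosome 17 cluster, 36 of the mutant tags and all 3 wild-type tags came from the first member and reached left. Its last member held 13 mutant tags, 10 of them to the right, and was not an anchor in wild type. In the chromosome 7 cluster the first member reached left with 4 mutant and 19 wild-type tags. The anchor over the second and the third members reached right with 30 wild-type tags and was not listed in the mutant. In both clusters the first member was an anchor in both lists and reached left in each.

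The cluster with most tags lay at chr14:103450330-103469846 and had 4 peaks over 18.5 kb. It held 342 mutant and 314 wild-type tags over 11 interactions in each list, a log2 ratio of -0.02 (-0.25 to 0.20). Its first member, at the 99.4th percentile of score, held 301 mutant and 287 wild-type tags, of which 288 mutant and 273 wild-type tags reached left. The second member was not used. The third, 14.2 kb from the first, held 41 mutant and 23 wild-type tags, of which 34 and 19 reached right, and the last had no mutant tags and 14 wild-type tags. Of the 47 mutant and 31 wild-type tags that reached right, 13 mutant and 4 wild-type tags came from the first member. The map of this cluster thus shows nearly all left-reaching tags at its left end. Most right-reaching tags were at the third member, an inner one, in both lists. The last member held 8 right-reaching tags in wild type and none in the mutant.

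A 5-peak cluster at chr18:75757550-75770813 had most partners, 21 over both lists, with 117 mutant and 167 wild-type tags. Its first and second members reached left with 92 mutant and 122 wild-type tags in all, and right with 3 and none. The other 3 members reached right with 19 mutant and 45 wild-type tags, and left with 3 and none. The fourth member was an anchor in wild type alone, with 10 tags. The switch from left to right thus fell between the second and the third member in both lists.

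After the chromosome 14 cluster, the mutant held more in the next 4 clusters by tags. A 3-peak cluster at chr1:183810939-183819626 held 292 mutant and 155 wild-type tags. The anchor over its first and second members reached left with 45 mutant and 17 wild-type tags, while its last member reached right with 242 and 134, and left with 5 and 4. A 7-peak cluster at chr15:102995630-103022165 held 275 mutant and 166 wild-type tags. Beyond the limits of the cluster, its first 4 members reached left alone, with 131 mutant and 85 wild-type tags. The fifth reached both sides, and the sixth reached right with 16 wild-type tags and was not listed in the mutant. A 7-peak cluster at chr1:184045215-184080586 held 248 mutant and 125 wild-type tags and reached left from 5 members in the mutant and 4 in wild type, with no right-reaching interaction beyond its limits. The third and the seventh members were not used.

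**Figure D5:**
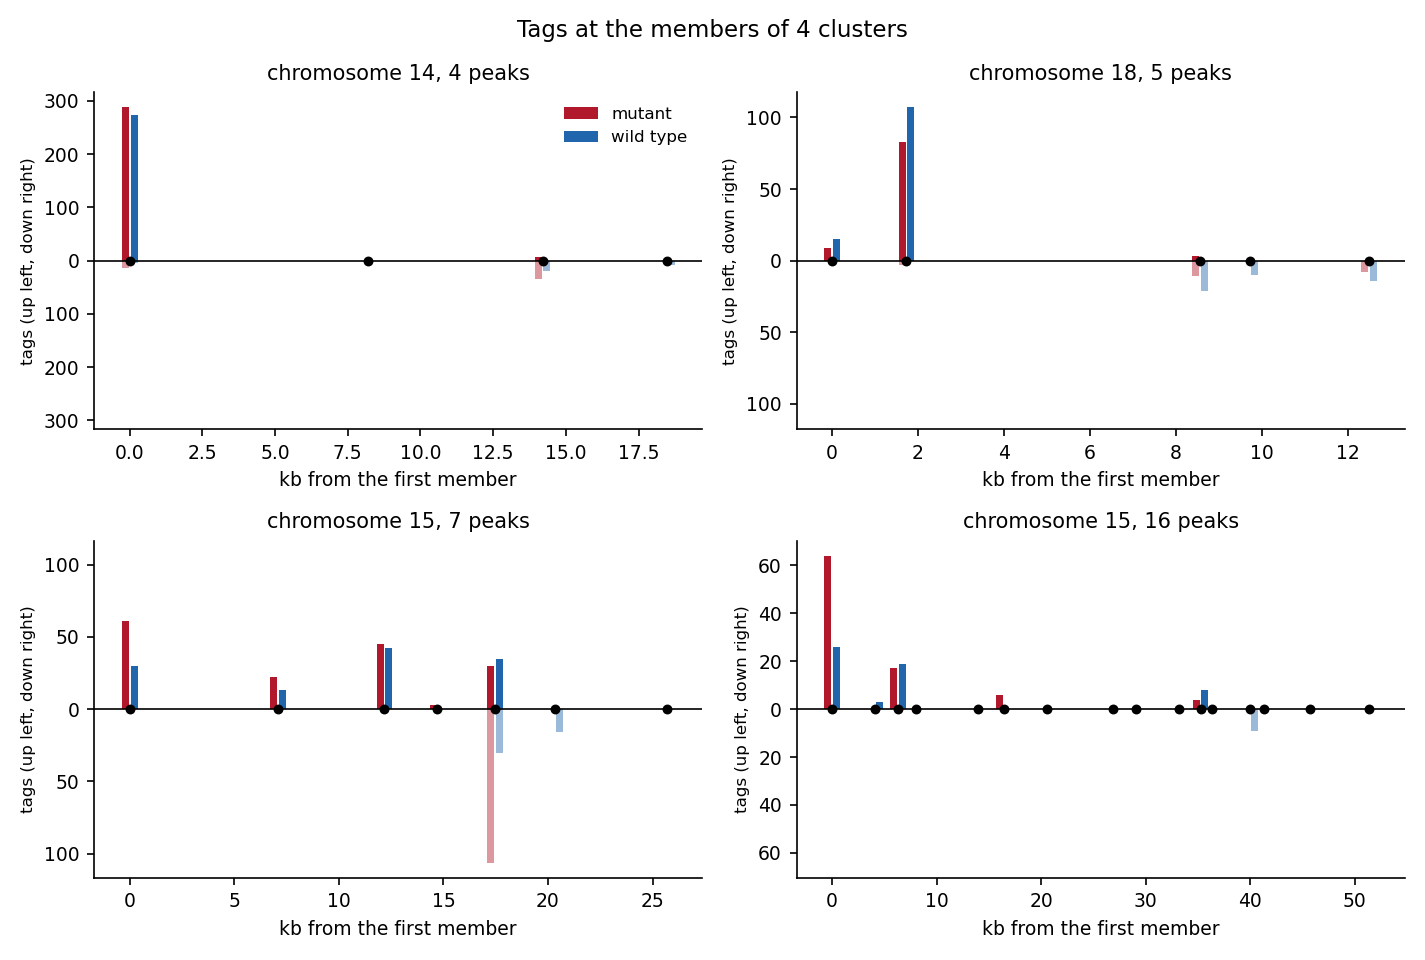
Tags at each member of 4 clusters, with interactions that reach left drawn upward and those that reach right drawn downward, against the position in kb from the first member. Red bars are the mutant and blue bars the wild-type list, black dots mark the members, and interactions between members of 1 cluster are not drawn. In the 5-peak cluster on chromosome 18 the first 2 members carry nearly all left-reaching tags and the last 3 nearly all right-reaching ones.

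At chr11:4158238-4171191, a 5-peak cluster held 226 mutant and 136 wild-type tags, of which its first member, in the top score ranks, held 214 and 124. This member reached both sides, with 149 mutant and 75 wild-type tags to the left and 65 and 49 to the right, and the last 2 members were unused. Another 5-peak cluster at chr11:32220772-32243293 had 17 partners, with 180 mutant and 103 wild-type tags. Its first member reached left with 113 and 56 tags and its last reached right with 37 and 29. A 3-peak cluster at chr16:11418194-11424559, 5.71 kb long, had 16 partners. Its first member reached left with 18 mutant and 17 wild-type tags, and the second and the third reached right with 45 mutant and 53 wild-type tags, with no exception in either list.

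The clusters with most peaks were not the busiest. The 16-peak cluster at chr15:103137423-103189347 held 104 mutant and 78 wild-type tags. Its first member carried 68 of the mutant and 31 of the wild-type tags, and 9 of its 16 members were at no anchor of either list. The 14-peak clusters at chr2:28426100-28497214 and chr5:120538366-120601580 held 36 mutant and 30 wild-type tags and 25 mutant and 43 wild-type tags. A 10-peak cluster at chr5:139799914-139840733 held 40 mutant and 45 wild-type tags.

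The cluster of 20 peaks stood apart. It lay near the start of chromosome 9, at chr9:3015198-3038414, with all scores at or below the 60.7th percentile. It had no interaction in either list, and none of its 20 peaks was in the B cell list. A 5-peak cluster just before it, at chr9:2999948-3004677, was likewise without interactions and without B cell peaks. No mm9 genome or list of excluded regions was used here, so whether these 2 runs lie in sequence where reads map unreliably was not tested. A 9-peak cluster at chrX:47955610-47976568 also had no member in the B cell list and held 3 mutant and 3 wild-type tags, each from 1 interaction at different members.

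Nearly all member peaks were also CTCF peaks of B cells. Of the 11339 members 91.7% (91.2 to 92.2) overlapped a peak of the B cell list by 1 bp or more, against 87.4% (86.9 to 87.8) of single peaks, a difference of 4.37 points (3.66 to 5.06). Peaks in runs of 2 overlapped in 90.9% of cases (90.3 to 91.5), close to the members. The score went with this too. In the lowest score class 71.2% of members and 68.1% of single peaks overlapped, and in the highest 99.9% of members and 99.7% of single peaks. Within score classes the difference ran from 0.19 to 3.16 points, with intervals that included 0 in the 2 highest classes, and in the middle class members were at 96.1% and peaks in runs of 2 at 96.4%. With midpoints required to lie within 100 bp, the direction turned, with 77.0% of members and 80.1% of single peaks. Of the members in the B cell list, 5.46% lay under a B cell peak that covered another CH12 peak as well. For peaks in runs of 2 this share was 3.35%. It was so for no single peak, but by the rule these lay more than 10 kb from any other CH12 peak.

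Every member was in the B cell list in 76.0% of clusters, and 13 clusters (0.43%) had no member in it. In runs of 2 these shares were 83.6% and 1.75%. Both depend on the number of peaks in a run. Of the 10402 members in the B cell list 40.7% were at a mutant anchor, against 6.08% of the 937 members outside it, and of the wild-type list in 42.1% against 5.87%. Their scores differed as well, with median percentiles of 61.3 inside and 16.1 outside the B cell list. Single peaks showed a like contrast, with 30.7% of those inside and 4.65% of those outside the B cell list at a mutant anchor. For wild-type anchors the single peaks had 34.8% and 5.26%, and their median score percentiles were 49.6 and 16.4. By the same rule the B cell list formed 6141 clusters, which held 43.1% of its peaks. Of the CH12 clusters 88.0% overlapped one of these, and of the B cell clusters 42.8% overlapped a CH12 cluster. In 732 CH12 clusters (24.2%) the B cell list held at least 1 peak that no CH12 peak overlapped. The most B cell peaks inside a CH12 cluster were 17, in the 14-peak cluster on chromosome 5, with 4 of them not overlapped by a CH12 peak. The 16-peak cluster on chromosome 15 held 16, with 1 not overlapped. A 7-peak cluster at chr11:106993196-107024110 held 16 B cell peaks, 9 of them not overlapped in CH12, and had 3 mutant and 9 wild-type tags.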

How the data were processed

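Interaction lists hold counts of supporting tags as the authors deposited them, kept per the file headers at 3 or more tags and loop sizes up to 2 Mb. For each CH12 peak the authors deposited a score, used here as a rank, and a name that begins with MACS. The B cell list, in the narrowPeak layout, has a fold over background deposited by the authors, used in 1 alternative, and a −log10 q-value, deposited too and not used. The build, mm9, comes from the submitters' processing notes, which also name, with no role for any, BWA, Bowtie 1.1.1, bedtools 2.25, SAMtools 1.2 and CASAVA 1.8.2. Not given in the sources used here are whether libraries were pooled before peak calling and whose peak calls set the anchors. Lack of a peak call could therefore also keep an interaction off a list. Samples were grouped by their labels, and the other samples of the 352 in the series were not analysed here.

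A peak was at an anchor when they overlapped by 1 bp or more, and interactions were matched by identical anchors. Log2 ratios were scaled to all listed tags. The depth of the libraries is unknown, since the lists leave out interactions under 3 tags, and intervals cover counting error only. Named clusters were the 5 with most peaks, the 5 with most tags, the 3 with most partners, the 3 highest and 3 lowest mutant over wild-type ratios at 40 or more tags, the 3 with most B cell peaks and the 3 with most members outside the B cell list, and named interactions the 5 smallest p in each direction. The clusters, comparisons and rules were chosen with earlier results of these data known. The binomial test, the building of runs and the counting of sides were tested on simulated data, and the other steps were not. Alternatives were other gap limits, stronger peaks, merged peaks, interactions with 5 or more tags, other overlap rules, the X chromosome left out and other forms of the test. Scripts ran in Python 3.11.15, with scipy 1.17.1 for the tests, pandas 2.3.3 and numpy 2.4.6 for the tables and matplotlib 3.10.9 for the figures. No mm9 genome or annotation was used here, so genes, sequences and motif directions are not given.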

Additional observations from a re-analysis of the deposited data

How the results depend on the processing

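Of 61 values under alternatives, 32 stayed within the main 95% interval (counts, within 1.5 times), 28 lay outside it and 1 reversed. The causes were not tested. Among those that stayed, the log2 difference under another scaling of tags could not change, because the scale cancels in the difference. Requiring the peak midpoint inside the anchor left every value as it was. With a gap limit of 5 kb there were 1427 clusters, members exceeded single peaks in anchor use by 11.9 points, the strongest peak led in 65.4% of clusters, outer members reached away in 67.5%, clusters exceeded single peaks by 0.13 in log2 tags and by 2.83 points in B cell overlap, and 64 interactions were called. With 20 kb, anchor use differed by 12.1 points, 71.3% of clusters in use had 2 or more members at anchors, the strongest led in 55.4%, outer members reached away in 73.0%, and the log2 and B cell differences were 0.20 and 6.53 points. With peaks at or above the median score, which form fewer runs by construction, there were 937 clusters, with 6.64 points, 84.1%, 52.3%, 76.3%, 0.088 and 0.918 points for the same 6 results. Merging peaks within 1 kb gave 8.03 points of anchor use and 64.2% with 2 or more members. At 5 or more tags these were 8.54 points and 53.2%, and outer members reached away in 73.8%. B cell overlap reversed to -3.06 points when midpoints had to lie within 100 bp. Calls numbered 374 with a missing interaction at 0 tags and 35 among interactions in both lists. In 3 alternatives chosen after the data were seen, the log2 difference was 0.10 among interactions in both lists, outer anchors counted once reached away in 71.3%, and summing all outcomes no more likely in the test gave 129 calls. The difference in wild-type matched share stayed within its interval in 7 of 7 alternatives, from -0.099 to 2.49 points, though with merged peaks its own interval excluded 0. No paired analysis was possible because each genotype had a single ChIA-PET library.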
